A study of Mus musculus with 3 samples.

Results

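The S100 calcium-binding proteins are a family of small EF-hand proteins, and 10 of their genes were followed here through 3 mouse pancreatic tumour cell lines. The members are S100a1, S100a4, S100a6, S100a8, S100a9, S100a10, S100a11, S100a13, S100a14 and S100a16, taken by symbol from a list drawn up with earlier results of these data known. All 10 were found among the 22757 named genes of the table, and 8 more entries carry an S100 symbol. Each line gave 1 RNA-seq library (n = 1 per stage), so the groups have no replicates, and differences are described without a p-value or an SD.

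The lines belong to the HI-Panc progression model, derived from tumours of transgenic mice that carry a p16-/- genotype. All 3 lines share that background, and nothing in the labels gives the age of the mice or the number of clones behind a line. The localized line (HI-Panc-L) has body wall as its tissue label, the invasive line (HI-Panc-I) has pancreatic tissue and the metastatic line (HI-Panc-M) has liver. Body wall for a localized and pancreas for an invasive line is not the pairing that the stage names lead one to look for. The groups here follow the stage label, and were these lines exchanged, the direction of every difference between them would turn. Cells were grown in DMEM with 10% serum, and the treatment text, shared by all 3, describes cobalt chloride at 100 ng/ml for 24 h as a model of hypoxia without saying which libraries it applies to. Stage, tissue of origin and line therefore cannot be told apart.

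Most S100 proteins form dimers, bind calcium through a pair of EF-hand loops and then expose a surface that grips target proteins. Inside cells they act on annexins, the cytoskeleton and calcium pumps, and several are released and bind receptors such as RAGE and Toll-like receptor 4. In pancreatic tumours S100 proteins have long been studied as markers of malignant epithelium, and S100a4 is also known as fibroblast-specific protein.

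The libraries were alike in estimated depth and in summed FPKM, which does not itself measure library size. Summed FPKM (fragments per kilobase scaled to the mapped fragments, a level per length of transcript) was 572661 in the localized, 575446 in the invasive and 565287 in the metastatic line, and whole-fragment steps in genes of low level gave depths of about 45600000, 41100000 and 43500000 fragments. Some epithelial markers were present in every library. Of 15 listed, 5 reached 1 FPKM in the localized, 12 in the invasive and 11 in the metastatic line. Krt8, a keratin of simple epithelium, had 765 FPKM in the localized, 2356 in the invasive and 2247 in the metastatic line, while Epcam had 0.209, 1.31 and 2.63 FPKM. Of 10 acinar markers, 4 were at 0 in all 3 libraries, among them Cpa1 and Ptf1a, and the 1 that passed the filter on low values, Cela1, had 7.24, 1.13 and 0.323 FPKM. No hepatocyte or skeletal muscle marker reached 1 FPKM in any library, whatever the tissue label.

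S100 transcripts were abundant in all 3 lines. The 10 members held 2.37%, 2.12% and 2.33% of the summed FPKM in the localized, invasive and metastatic libraries. The 4 most abundant (S100a4, S100a6, S100a10 and S100a11) made up 97.9%, 96.3% and 96.2% of that family total. The members spread over more than 4 orders of level, from S100a4, S100a11 and S100a6 among the 18 most abundant genes of every library down to S100a8 and S100a9, which were at or near 0. In RNA from a whole culture, fewer cells that express a gene and less RNA per cell cannot be told apart.

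**Figure D1:**
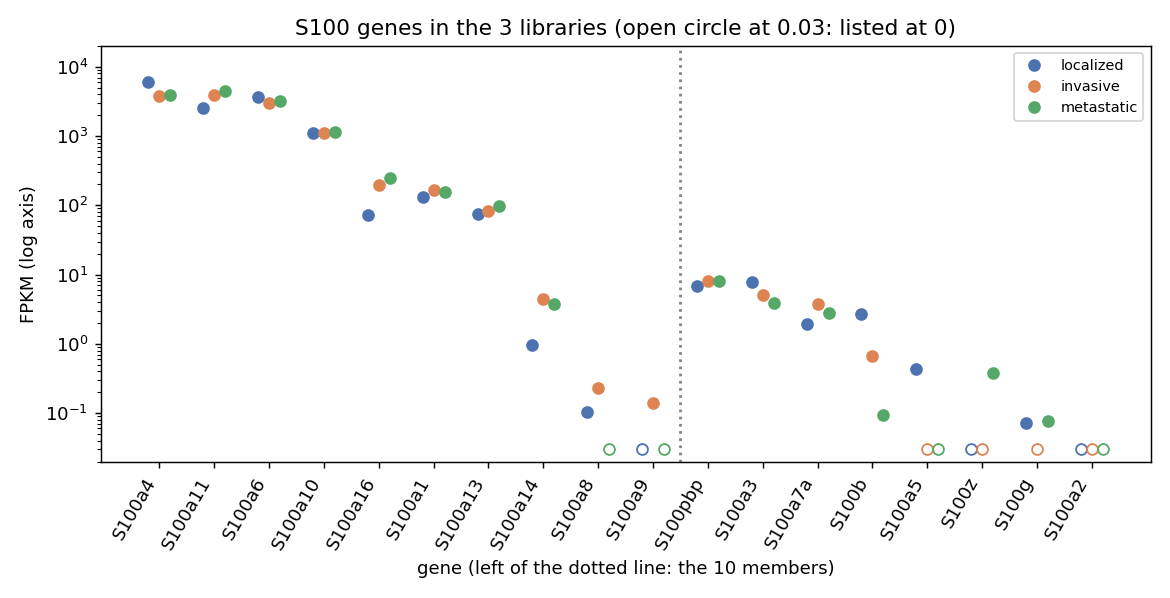
FPKM of the 18 genes with S100 symbols in each library, on a log axis, with members left of the dotted line and open circles for genes listed at 0. Each point is 1 library, so there is no error bar; S100a4 and S100a11 change places as the highest member between the localized library and the other 2.

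Differences were taken in log2(FPKM + 1), a scale that shrinks the fold of low genes, and a gene was called at a difference of 1 (2-fold) if its mean reached 1 FPKM. Of the 10 members, 8 passed that filter, and S100a8 and S100a9 did not. In the invasive against the localized library 2 of the 8, S100a14 and S100a16, were at least 2-fold higher, where 8.78% of 11404 counted genes were, and 0 were at least 2-fold lower, where 6.07% were. The same pair was at least 2-fold higher in the metastatic against the localized library, beside 9.08% of all counted genes, with 0 lower beside 7.29%. Both comparisons use the same localized library. Between the metastatic and the invasive library 0 of 8 members were past 2-fold in either direction, against 1.33% of counted genes higher and 1.67% lower. A count of 2 among 8 members is too small to be set apart from that background.

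The median difference of the 8 members was 0.23 in the invasive and 0.28 in the metastatic line relative to the localized one, and 0.10 in the metastatic relative to the invasive library. Over all counted genes the medians were -0.001, 0.004 and -0.009. At 1.5-fold, S100a11 joined the higher members of both comparisons with the localized library (15.1% and 15.9% of counted genes were that much higher) and S100a4 was the only lower one (11.9% and 14.1% of counted genes). None of the 8 differed by 1.5-fold between the metastatic and invasive libraries, where 3.51% of counted genes were higher and 5.35% lower. Likewise none differed by 1.5-fold one way both from localized to invasive and from invasive to metastatic, a pattern shown by 1.47% of counted genes upward and 1.54% downward.

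**Figure D2:**
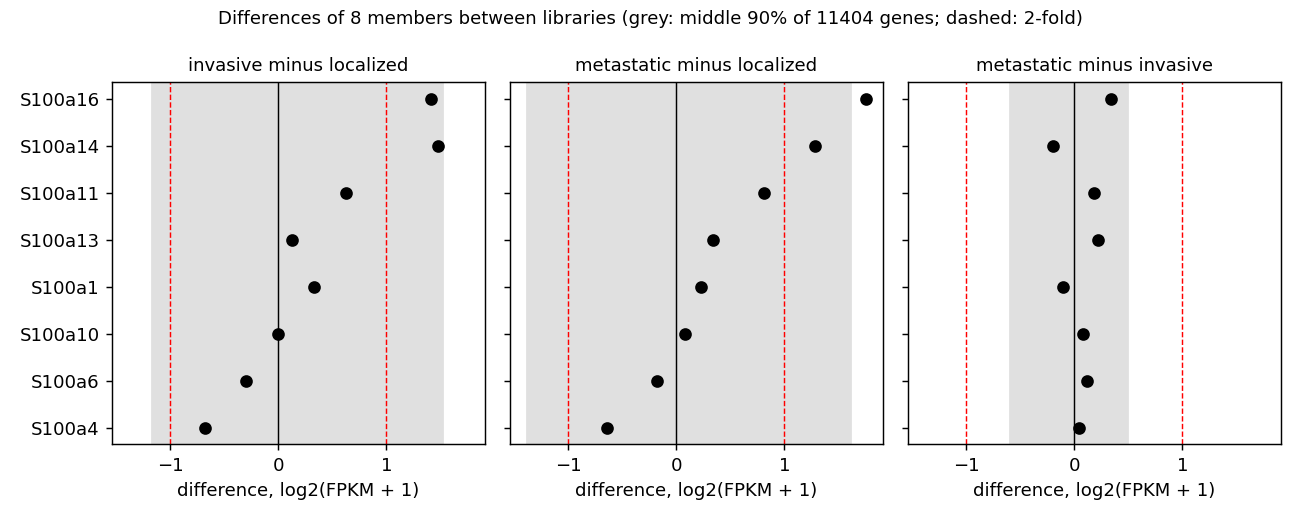
Difference of the 8 members past the filter in each pair of libraries on the log2(FPKM + 1) scale, with grey bands for the middle 90% of all counted genes and dashed lines at 2-fold. S100a16 lies outside the band for metastatic minus localized only, and all 8 members lie inside it for metastatic minus invasive.

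S100a4 is a motility-linked S100 protein that binds non-muscle myosin and marks mesenchymal cells as well as invasive tumour cells. It had 6019 FPKM in the localized, 3749 in the invasive and 3861 in the metastatic line. The localized library was the high one, where S100a4 ranked 2nd of all genes, and the other 2 lay close together. Its level was 1.61 times higher in the localized than in the invasive library (95% counting interval 1.58 to 1.63) and 1.56 times higher than in the metastatic library (1.53 to 1.58). These intervals, here and below, rest on fragments estimated for the shortest coding transcript and cover counting error only, not the variation between cultures.

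Fibroblast markers, like S100a4, were mostly highest in the localized library. Of 17 listed, 11 passed the filter and 9 lay at least 2-fold below the localized level in each of the other 2 libraries, where 6.07% (invasive) and 7.29% (metastatic) of counted genes did, and 1, Fbln1, lay above it in both. Of the 11, 3 fell short of 1 FPKM in the invasive line and 4 in the metastatic line, so they passed the filter through a library where they were higher. The summed level of the list was 914 FPKM in the localized, 355 in the invasive and 221 in the metastatic line. Fbln2, within 2-fold in every pair, held 239, 241 and 192 FPKM of it, most of the sum in the invasive and metastatic lines. Pdgfra, a PDGF receptor of fibroblasts, had 42.7, 1.09 and 1.97 FPKM, and Dcn, the proteoglycan decorin, had 54.4, 0.071 and 0.014 FPKM. Among markers of activated fibroblasts, Col1a1 had 162, 46.3 and 3.45 FPKM and Acta2 had 16.3, 4.76 and 0.461 FPKM, while Fap and Postn were below 0.1 FPKM in every library. Epithelial markers stood the other way, with a summed level of 1200, 6570 and 7070 FPKM in the same order. The part of either group of markers in the S100a4 values was not tested.

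The S100a4 gene lies at chr3:90603771-90606045 on the plus strand of GRCm38 (GENCODE M21). Another gene model, Gm42674, overlaps it by 2115 bases on the same strand and is not among the genes analysed here, so reads of the pair could not be separated. Its 300-base RefSeq promoter window (GRCm38.p6, chr3:90603520-90603819, plus strand, 250 bases before to 50 after the start) is shown because S100a4 has the highest mean level of the members and is the only one at least 1.5-fold lower outside the localized library. Capitals mark the TATA box letters, whose first base lies 31 bases before the start.
S100a4: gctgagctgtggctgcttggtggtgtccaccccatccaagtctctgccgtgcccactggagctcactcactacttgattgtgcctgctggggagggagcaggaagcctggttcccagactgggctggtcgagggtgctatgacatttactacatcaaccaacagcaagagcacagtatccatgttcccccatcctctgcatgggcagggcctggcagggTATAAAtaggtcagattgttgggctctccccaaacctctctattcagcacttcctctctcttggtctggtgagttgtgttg

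S100a6, also called calcyclin, is a proliferation-associated member that binds the ubiquitin ligase adaptor Cacybp. S100a6 had 3641, 2957 and 3210 FPKM in the localized, invasive and metastatic libraries. It was highest in the localized library, like its chromosomal neighbour S100a4, but by only 1.23 times over the invasive (counting interval 1.21 to 1.25) and 1.13 times over the metastatic library (1.12 to 1.15). Cacybp had 57.5, 36.6 and 40.5 FPKM, a difference of -0.64 for invasive and -0.49 for metastatic against localized. Both genes were thus highest in the localized library, neither past 2-fold.

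S100a11 is a calcium-regulated partner of annexin A1 with roles in membrane repair and keratinocyte growth control. S100a11 had 2541 FPKM in the localized, 3929 in the invasive and 4447 in the metastatic line. It was lowest in the localized library, where it ranked 18th, and highest in the metastatic library, where it ranked 3rd. The invasive level was 1.55 times the localized one (counting interval 1.53 to 1.57), the metastatic level 1.75 times (1.73 to 1.77), and the metastatic level 1.13 times the invasive one (1.12 to 1.15). None of these steps reached 2-fold.

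The 2 most abundant members changed places between the lines. The S100a4 to S100a11 ratio of FPKM, which no scaling between libraries can move, was 2.37 in the localized, 0.954 in the invasive and 0.868 in the metastatic line. S100a11 over S100a6 was 0.698, 1.33 and 1.39 in the same order. In the localized library S100a4 was the highest member and S100a11 the third, while S100a11 was the highest in the other 2.

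Anxa1, the annexin that S100a11 binds, did not follow it. Anxa1 had 1174, 817 and 714 FPKM in the localized, invasive and metastatic libraries, highest where S100a11 was lowest. S100a11 over Anxa1 was accordingly 2.16, 4.81 and 6.23.

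The promoter window of S100a11 (chr3:93520246-93520545, plus strand, GRCm38.p6) is shown because it held 3 of the 4 motifs searched, the most of any member. Capitals mark 3 GC boxes (GGGCGG), 2 AP-1 letters (TGANTCA) and the 2 overlapping matches of the hypoxia response core (ACGTG) that form 1 palindrome.
S100a11: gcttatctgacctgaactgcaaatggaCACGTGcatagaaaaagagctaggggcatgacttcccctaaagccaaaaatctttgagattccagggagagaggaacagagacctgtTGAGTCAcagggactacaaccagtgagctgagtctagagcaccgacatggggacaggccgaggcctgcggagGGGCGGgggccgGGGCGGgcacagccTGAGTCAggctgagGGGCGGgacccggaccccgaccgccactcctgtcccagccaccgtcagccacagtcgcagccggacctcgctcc

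S100a10, or p11, is a member whose EF-hand loops no longer bind calcium. It pairs with annexin A2 at the cell membrane and helps to gather plasminogen activators. S100a10 had 1094 FPKM in the localized, 1094 in the invasive and 1154 in the metastatic line. Its values were the closest together of the 8 members past the filter, with a metastatic to localized ratio of 1.05 (counting interval 1.03 to 1.08) and an invasive to localized interval of 0.977 to 1.02. Its sign for invasive against localized turned with the scaling, from -0.04 to 0.001. Anxa2 had 2069, 2249 and 1705 FPKM, so that S100a10 over Anxa2 was 0.529, 0.486 and 0.677. Ahnak, a giant scaffold protein bound by the S100a10 and annexin A2 complex, had 117, 55.3 and 64.7 FPKM and was at least 2-fold lower in the invasive than in the localized library.

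S100a16 had the largest difference of the 10 members on the log2(FPKM + 1) scale, that of metastatic from localized; by the ratio of FPKM, S100a14 differed more. It is a widely expressed member that binds calcium mainly through a single EF-hand loop. S100a16 had 72.8 FPKM in the localized, 195 in the invasive and 247 in the metastatic line. The localized library was the low one, and the level was highest in the metastatic library. The invasive level was 2.68 times the localized one (counting interval 2.47 to 2.91) and the metastatic level 3.40 times (3.14 to 3.68), with differences of 1.41 and 1.75 on the log2 scale. The step from invasive to metastatic was 1.27 times (1.20 to 1.35). It ranked 1208th of all genes in the localized and 325th in the metastatic library.

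The S100a16 gene lies at chr3:90537254-90543151 on the plus strand and has 8 annotated transcripts, which the table sums into 1 value. Its promoter window at the annotated gene start (chr3:90537004-90537303, plus strand; RefSeq lists 2 windows) is shown because S100a16 was past 2-fold in both comparisons with the localized library at levels well above the filter. It holds none of the 4 motifs searched, so no letters are in capitals.
S100a16: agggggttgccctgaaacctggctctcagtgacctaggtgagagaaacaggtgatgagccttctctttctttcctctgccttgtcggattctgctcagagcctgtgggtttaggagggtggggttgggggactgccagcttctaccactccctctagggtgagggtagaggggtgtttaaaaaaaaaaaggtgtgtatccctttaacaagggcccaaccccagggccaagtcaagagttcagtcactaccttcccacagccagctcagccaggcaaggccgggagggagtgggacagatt

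S100a14 is an epithelial member that is normally found in stratified and mucosal epithelia. S100a14 had 0.966 FPKM in the localized, 4.46 in the invasive and 3.77 in the metastatic line. The localized library was again the low one, and all 3 levels were low. S100a14 reached the mean of 1 FPKM only through the invasive and metastatic libraries, so a difference from the localized one was built into its passing the filter. About 13, 56 and 50 fragments stood behind these values, so that the invasive to localized ratio of 4.62 had a counting interval of 2.58 to 9.53, and the metastatic to localized ratio of 3.90 one of 2.16 to 8.09. The metastatic to invasive ratio of 0.845 (0.564 to 1.26) was not distinguishable from 1 at this depth. The differences of 1.47 and 1.28 on the log2(FPKM + 1) scale became 0.67 and 0.56 with a pseudocount of 5, below the call.

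Epithelial markers moved in the same direction as S100a14 and S100a16. Of 15 listed, 11 passed the filter, and relative to the localized library 10 lay at least 2-fold higher in the invasive line and 11 in the metastatic line (8.78% and 9.08% of counted genes did). However, 6 of the 11 were below 1 FPKM in the localized library and passed only through the libraries where they were high. Krt19, a ductal keratin, had 181, 1970 and 2365 FPKM, and Elf3, an epithelial transcription factor, had 7.20, 102 and 97.5 FPKM. In contrast Esrp1 and Grhl2, regulators of epithelial splicing and identity, were at or below 0.1 FPKM in all 3 libraries. The part of these markers in the S100 values was not tested.

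S100a1 and S100a13 form a head-to-head pair. S100a1, known for its action on calcium pumps and ryanodine receptors in muscle, had 132 FPKM in the localized, 166 in the invasive and 155 in the metastatic line. S100a13, which takes part in the release of FGF1 and interleukin-1 alpha without a signal peptide, had 76.1, 82.9 and 96.4 FPKM. Both were lowest in the localized library, but S100a1 was highest in the invasive and S100a13 in the metastatic library. No step of either gene exceeded 1.27 times, and S100a1 over S100a13 lay between 1.6 and 2.0.

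The partners of this pair were mostly low. Fgf1 had 0.158, 2.70 and 3.89 FPKM in the localized, invasive and metastatic libraries and passed the filter only through the libraries where it was high. It was at least 2-fold higher in both comparisons with the localized library, where 8.78% (invasive) and 9.08% (metastatic) of counted genes were. Atp2a2, the calcium pump of the endoplasmic reticulum, had 81.5, 91.3 and 101 FPKM. The ryanodine receptor genes Ryr1 and Ryr2 and the synaptic protein gene Syt1 were below 0.1 FPKM in every library.

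The annotated gene starts of S100a1 (minus strand) and S100a13 (plus strand) are 42 bases apart in GENCODE M21, and the RefSeq starts enclose 104 bases. The S100a13 window (chr3:90514185-90514484, plus strand, GRCm38.p6) is shown because it shares 204 bases with that of S100a1. Capitals mark the bases between the 2 RefSeq starts.
S100a13: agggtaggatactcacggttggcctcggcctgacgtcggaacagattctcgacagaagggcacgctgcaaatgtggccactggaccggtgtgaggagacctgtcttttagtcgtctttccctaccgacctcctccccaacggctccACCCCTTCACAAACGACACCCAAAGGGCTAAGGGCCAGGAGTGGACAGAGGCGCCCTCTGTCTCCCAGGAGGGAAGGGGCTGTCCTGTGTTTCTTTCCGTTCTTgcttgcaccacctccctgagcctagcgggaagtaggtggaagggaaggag

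S100a8 and S100a9, whose proteins together form calprotectin, the main calcium-binding complex of neutrophils and an inflamed epithelium, were barely detected. S100a8 was at 0.103 FPKM in the localized line, at 0.229 in the invasive line and listed at 0 in the metastatic one. S100a9 was listed at 0 in the localized and metastatic libraries and had 0.142 FPKM in the invasive one. These values correspond to between 1 and 3 fragments, and no fold is given because every level lay at or under the level of 3 fragments, 0.214 to 0.238 FPKM for S100a8 and 0.198 to 0.219 for S100a9. Whether the pair differed between lines was not detectable at this depth.

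Myeloid cells, the usual source of calprotectin, left few transcripts. Of 20 listed markers, 18 were in the table, 5 were at 0 in all 3 libraries (among them Mpo, Camp, Ngp and Tyrobp) and Ptprc, the pan-leukocyte marker CD45, had 0.017, 0.197 and 0.069 FPKM. Only Cd68 and Ltf passed the filter, and the lysosomal protein gene Cd68 had 4.82, 10.5 and 9.93 FPKM. Ltf, lactoferrin, which glandular epithelium also makes, had 0.324 FPKM in the localized, 103 in the invasive and 40.4 in the metastatic line, beside a summed level of the list of 5.77, 115 and 51.8 FPKM. Most of that sum was Cd68 in the localized and Ltf in the other 2 libraries. Of the factors that drive calprotectin genes in myeloid cells, Cebpb had 50.02, 37.3 and 33.7 FPKM and Spi1 was at 0 in every library.

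The 8 other entries with S100 symbols were all low. S100b, a glial and melanocytic member, had 2.70 FPKM in the localized, 0.671 in the invasive and 0.093 in the metastatic line. Of the 4 that passed the filter, it was the only one at least 2-fold apart in any pair. It was lower by 1.15 and 1.76 on the log2 scale against the localized library, with about 161, 36 and 5 fragments behind the values. Of counted genes, 6.07% (invasive) and 7.29% (metastatic) were at least 2-fold lower. S100b passed the filter only through the localized library, where it was high, so a difference was built into its passing. S100a3, next to S100a4 on the chromosome, had 7.80, 5.06 and 3.93 FPKM, and S100a7a, the psoriasin relative, had 1.95, 3.76 and 2.78 FPKM. S100a5, S100g and S100z never reached 0.5 FPKM, S100a2 was listed at 0 throughout, and S100pbp, which encodes a binding protein for S100P and no S100 protein, lay between 6.77 and 8.001 FPKM. The large S100-fused proteins of the skin, Flg2, Hrnr, Rptn, Tchh, Tchhl1 and Crnn, stayed below 0.32 FPKM.

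All 10 members lie on chromosome 3. Of these, 8 lie within 185 kb, from S100a1 to S100a9, and S100a11 and S100a10 lie 2.82 Mb further on, within 44.2 kb of each other. Read in chromosome order, S100a1, S100a13, S100a14 and S100a16 were all higher in the invasive and metastatic libraries than in the localized one. The next genes, S100a3, S100a4, S100a5 and S100a6, were all lower, with differences from -0.18 to -0.84, and S100a2 among them was at 0. Beyond S100a6 the sign was not uniform, with S100a7a higher by 0.69 and 0.36 and S100a8 and S100a9 near 0. Only S100a14 and S100a16 of these 8 were past 2-fold, and S100a5, which did not pass the filter, rests on about 5 fragments in the localized library. Between the outermost members lie 54 other genes of the table, of which 7 passed the filter. All 7 are genes of the cornified envelope (small proline-rich genes and involucrin), and each was at least 2-fold apart in some pair. The share of counted genes past 2-fold in some pair was not computed. By pair, 8.78% were higher and 6.07% lower for invasive against localized, and 9.08% and 7.29% for metastatic against localized. For metastatic against invasive, 1.33% were higher and 1.67% lower. Ivl and Sprr2b were below 1 FPKM in the localized library and passed the filter only through libraries where they were higher.

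**Figure D3:**
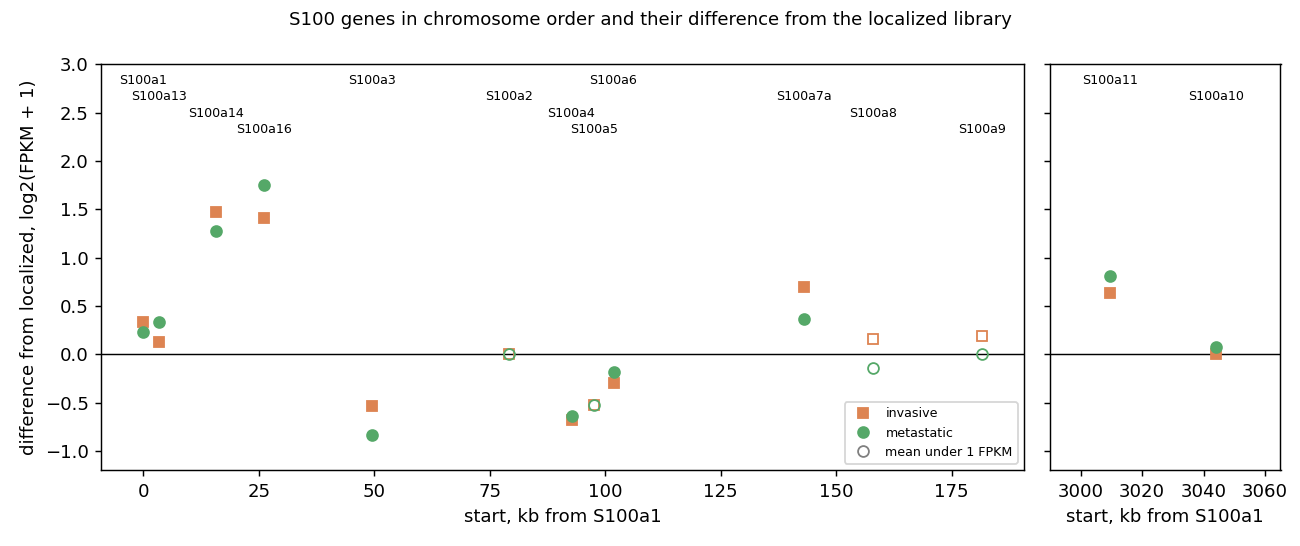
Difference of each S100 gene of chromosome 3 from the localized library on the log2(FPKM + 1) scale against the distance of its start from that of S100a1 in kb, with squares for the invasive and circles for the metastatic library and open symbols for genes with a mean under 1 FPKM. The first 4 genes lie above 0 and S100a3, S100a4, S100a5 and S100a6 lie below it in both comparisons, which share the localized library.

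Promoter windows were found for 8 of the 10 members, all but S100a10 and S100a14. The 4 motifs were searched on both strands. The TATA box (TATAAA) occurred in S100a4, S100a8 and S100a9 and in 13.6% of 32851 windows. It began 31 bases before the start in S100a4 and 30 bases before it in S100a8, but at the annotated start itself in S100a9. The GC box (GGGCGG; 35.7% of windows) occurred in S100a9 and S100a11, the AP-1 letters TGANTCA (7.81%) in S100a11 alone, and the hypoxia response core ACGTG (19.6%) in S100a6 and S100a11. S100a11 had the most CpG pairs, 15 in 300 bases, and S100a4, S100a9 and S100a16 the fewest, 2 each, against a median of 7 over all windows. A match describes letters, not binding.

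Calls among the intracellular partners of S100 proteins were near the background of all counted genes. Of 30 intracellular partners, 21 passed the filter, with 1 higher (Fgf1) and 1 lower (Ahnak) at 2-fold in the invasive against the localized library, where 8.78% and 6.07% of counted genes were. In the metastatic against the localized library 2 were higher (Fgf1 and Anxa11) and 1 lower (Tpm1), beside 9.08% and 7.29%. Anxa11, an annexin bound by S100a6, had 35.3, 57.5 and 111 FPKM in the localized, invasive and metastatic libraries. Tpm1, a tropomyosin bound by several S100 proteins, had 615, 428 and 261 FPKM. Myh9, the non-muscle myosin that S100a4 binds, had 199, 265 and 229 FPKM, so that S100a4 over Myh9 was 30.2, 14.1 and 16.9.

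Among 20 receptors and extracellular partners, 12 passed the filter. Ager, which encodes RAGE, was low in every library with 0.146, 0.267 and 0.272 FPKM. Tlr4 had 11.2, 13.4 and 14.8 FPKM and its co-receptor Ly96 10.5, 11.8 and 13.5 FPKM, while Bsg, a receptor for S100a9, was abundant with 759, 991 and 896 FPKM. Egfr (2.77, 8.51 and 8.16 FPKM) was at least 2-fold higher in both comparisons with the localized library. Plat and Plaur, the tissue plasminogen activator and the urokinase receptor, had 32.9, 38.0 and 53.3 FPKM and 198, 268 and 273 FPKM, and plasminogen itself, Plg, was at 0 throughout.

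Of 20 transcription regulators reported for S100 genes, 17 passed the filter. Klf5, a factor of proliferating epithelium, had 17.4, 56.2 and 65.4 FPKM in the localized, invasive and metastatic libraries, and Fos had 1.15, 47.1 and 4.39 FPKM. Epas1, the hypoxia factor HIF-2 alpha, had 0.325, 2.39 and 2.08 FPKM and passed the filter only through the libraries where it was high. These 3 genes were at least 2-fold higher in both comparisons with the localized library, where 8.78% (invasive) and 9.08% (metastatic) of counted genes were. Fosl1 was at least 2-fold lower in both, with 20.4, 7.55 and 9.44 FPKM, and Jun, with 48.3, 24.9 and 10.1 FPKM, in the metastatic library only. Of counted genes, 6.07% (invasive) and 7.29% (metastatic) were that much lower. Stat3, Hif1a and Ctnnb1 were within 2-fold in every pair.

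**Figure D4:**
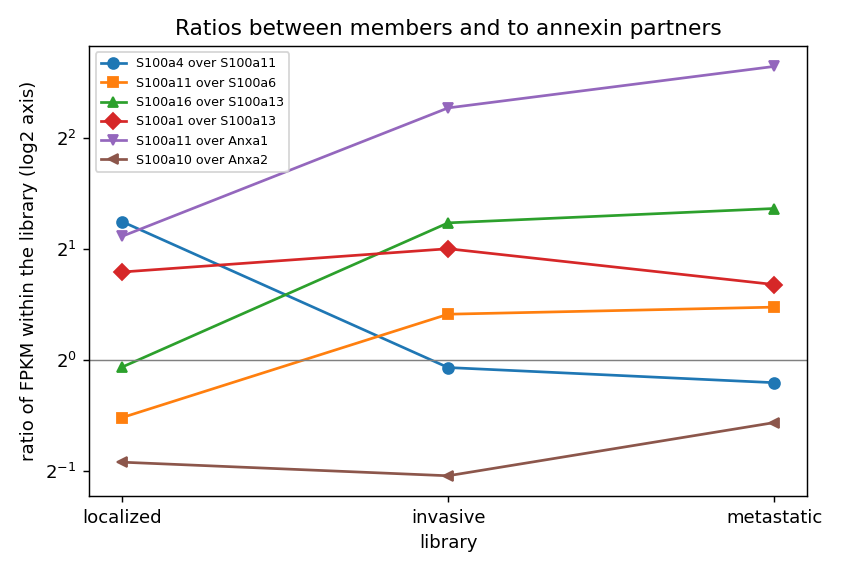
Ratio of FPKM between 2 members, or between a member and the annexin it binds, within each library on a log2 axis. S100a4 over S100a11 starts at 2.37 in the localized library and lies below 1 in the other 2, while S100a11 over Anxa1 goes from 2.16 to 6.23.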

How the data were processed

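RNA-seq of 3 lines, 1 library each, was analysed, and groups follow the labelled stage. The authors deposited FPKM for each gene in a single table; the unit is taken per the file headers. Per the submitters' processing notes, STAR 2.5.2a, FastQC 0.11.2, Cufflinks 2.2.1 and GRCm38 were used, without their roles or order. The annotation, read pairing and strandedness are not given in the sources used here.

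The lowest deposited value was 0.1 in each column, so 0.1 was subtracted. Of 22784 entries, 27 with a date number for a symbol were left out, as were 22 short or ribosomal RNA genes from counts. Differences are in log2(FPKM + 1), for genes with a mean of at least 1 FPKM. The members and the 12 gene lists (185 symbols, 180 in the table) were chosen with earlier results of these data known. Named are all S100 genes and, from other lists, genes at least 2-fold apart in any pair or among the most abundant; other marker genes were named after their values were seen. Depth was estimated from whole-fragment steps in genes with 1 GENCODE M21 transcript, at a mean fragment of 180 bases, and the method was tested on simulated data. Counting intervals (Clopper-Pearson, 95%) and floors (3 fragments) rest on these estimates, in which depth and fragment length trade off, and are approximate. Alternatives changed the pseudocount, offset, filter, scaling and call threshold. An allele of the genotype label and 1 listed gene are not reported here. Python 3.11.15, numpy 2.4.6, pandas 2.3.3, scipy 1.17.1 and matplotlib 3.10.9 were used.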

Additional observations from a re-analysis of the deposited data

How the results depend on the processing

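With 1 library per stage no replicate could be left out, and counting error is the only error known. No paired analysis was possible because each group has 1 library and no result comes from a test. The count of members past 2-fold was 1 (S100a16) in both comparisons with the localized library with a pseudocount of 5, and also with a minimum mean of 5 FPKM, which S100a14 does not reach. It was 4 in both at a call of 1.5-fold, 3 higher and 1 lower. Under the other 6 alternatives it stayed at 2, S100a14 and S100a16, and it was 0 for metastatic against invasive under all 9. Over 180 single differences under the 6 alternatives that recompute them (pseudocounts, offset, scalings), 174 kept their side of the call and none that was called changed sign. The 6 others were S100a14 with a pseudocount of 5 (0.67 and 0.56) and 4 values of S100a8 and S100a9 with a pseudocount of 0.1, all from 3 fragments or fewer. S100a4 ranged from -0.73 to -0.68 and from -0.69 to -0.62 against localized, and S100a16 from 1.36 to 1.42 and from 1.70 to 1.78. The scalings moved the median of all counted genes by under 0.1.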

Other observations

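The genes whose differences from the localized library lay closest to those of the 2 members past 2-fold were listed by distance in the plane of the 2 log2 differences, over 3 libraries that share the localized one. Nearest to S100a14 were Mycl (4.25, 13.5 and 11.7 FPKM in the localized, invasive and metastatic libraries), a MYC family transcription factor, Npc1 (10.3, 30.4 and 26.9 FPKM), a lysosomal cholesterol transporter, and Dhh (2.39, 8.24 and 7.39 FPKM), a hedgehog ligand. Nearest to S100a16 were Metrnl (5.33, 15.8 and 20.9 FPKM), a secreted factor, Ctsc (14.7, 40.1 and 50.5 FPKM), a lysosomal protease that activates granule proteases, and Rassf6 (6.65, 19.7 and 25.4 FPKM).

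Of the 7 cornified-envelope genes that lie between the S100 members on chromosome 3, Ivl, involucrin, had 0.852, 6.41 and 15.8 FPKM, and Sprr1a had 122, 353 and 273 FPKM. Sprr2h (7.48, 14.3 and 125 FPKM), Sprr2b (0.253, 0.42 and 11.5 FPKM) and Sprr2d (1.40, 8.42 and 13.9 FPKM) were, like Ivl, highest in the metastatic library. Sprr2k (23.5, 4.75 and 15.9 FPKM) and Sprr2e (6.41, 1.87 and 3.10 FPKM) were instead highest in the localized library, although reads of this family are hard to assign to 1 gene.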
